A study of Mus musculus with 6 samples.

Results

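The carbohydrate sulfotransferases described here are 10 mouse genes, Chst1, Chst2, Chst3, Chst7, Chst8, Chst10, Chst11, Chst12, Chst14 and Chst15, which were taken by symbol from the 39179 genes listed in the data, and all 10 were found. Chst8 and Chst15 name the group because of their values in these same libraries, so all differences between conditions for the 10 genes are given as a description. Where a member is said to pass or miss a threshold of the fit over all genes, that too is a description and supports nothing. RNA was sequenced from Ocy454 cells, a mouse cell line with properties of osteocytes, the cells embedded in bone matrix. The cells had been kept for 14 days at 37 °C and were then exposed for 4 h to vehicle, to PTH 1-34 at 1 nM, or to YKL-05-093 at 0.5 µM. PTH is parathyroid hormone, and YKL-05-093 is a compound made to block salt-inducible kinases. Each of the 3 conditions had 2 libraries from this 1 cell line, no genetic change is named in the labels, and both treatments were compared with the same vehicle libraries, since no separate solvent control for YKL-05-093 is named. The paper gives DMSO as the solvent of the compounds for work in culture. Whether the vehicle held DMSO is not stated, so an effect of DMSO cannot be told apart from one of YKL-05-093. The paper names experimental duplicates for each condition without saying what was repeated. Nothing in the labels says that the 2 libraries of a condition came from separate cultures, so the spread between them may be technical.

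Carbohydrate sulfotransferases are Golgi enzymes that move sulfate from the activated donor PAPS to a chosen hydroxyl group of a sugar chain. On chondroitin and dermatan sulfate, the chains of many proteoglycans of bone and cartilage, the position of the sulfate depends on which enzyme acted, and the resulting pattern governs what the chain can bind. Other members of the family act on keratan sulfate, on N-glycans of secreted hormones or on the HNK-1 epitope of the nervous system.

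The promoters of the genes that stood furthest apart between conditions are shown first, since PTH acts through cAMP and the cAMP response element is the textbook sequence of that route. Each promoter runs from 250 bases before to 50 bases after a transcription start in RefSeq on GRCm38.p6, is written 5′ to 3′ on the strand of the gene, and has in capitals each match to GGGCGG (the GC box) or to TGACG (the half-site of the cAMP response element), on either strand. The Chst8 promoter lies at chr7:34812662-34812961 on the minus strand, and its start is the annotated start of the gene. The first Chst15 promoter lies at chr7:132317179-132317478 on the minus strand, again at the annotated start of the gene, and the second at chr7:132316977-132317276, so the 2 windows overlap.
Chst8 promoter: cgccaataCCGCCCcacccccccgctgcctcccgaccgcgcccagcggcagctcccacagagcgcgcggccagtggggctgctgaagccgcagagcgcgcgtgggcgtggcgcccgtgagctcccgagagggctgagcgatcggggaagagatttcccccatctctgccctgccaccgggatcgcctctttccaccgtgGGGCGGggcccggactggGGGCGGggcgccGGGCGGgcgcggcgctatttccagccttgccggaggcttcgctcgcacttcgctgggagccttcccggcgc
Chst15 promoter 1: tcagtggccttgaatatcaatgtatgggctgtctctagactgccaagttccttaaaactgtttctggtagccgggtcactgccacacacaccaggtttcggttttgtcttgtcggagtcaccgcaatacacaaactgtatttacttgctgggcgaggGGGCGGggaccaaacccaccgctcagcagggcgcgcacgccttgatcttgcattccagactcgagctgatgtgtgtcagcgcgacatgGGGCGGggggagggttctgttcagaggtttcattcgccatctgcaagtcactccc
Chst15 promoter 2: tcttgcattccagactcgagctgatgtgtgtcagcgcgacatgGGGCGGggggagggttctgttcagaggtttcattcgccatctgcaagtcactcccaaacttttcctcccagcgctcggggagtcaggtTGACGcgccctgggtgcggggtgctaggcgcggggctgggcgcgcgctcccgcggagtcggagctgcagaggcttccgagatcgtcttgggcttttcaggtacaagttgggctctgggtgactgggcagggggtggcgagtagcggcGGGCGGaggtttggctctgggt
The Chst8 window held 4 GC boxes, of which 3 lay within 51 bases before the start, while each Chst15 window held 2. The box at base -5 of the first Chst15 window is the same as that at base -207 of the second. A half-site occurred in 1 of the 11 promoters of the 10 genes, at base -119 of the second Chst15 promoter, whereas 20.8% of 32851 RefSeq promoters of the same length hold one. The full element, TGACGTCA, was in none of the 11 promoters and is in 1.79% of all. The AP-1 motif TGANTCA, present in 7.81% of all promoters, and the MEF2 motif, present in 3.19%, also had no match in the 11 windows. GC boxes were in 9 of the 11 windows, which belong to 8 of the 10 genes, against 35.7% of all promoters. These matches describe letters in a short window and say nothing about binding.

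The libraries held between 17505798 and 27983585 reads counted on genes, recovered from the steps between the deposited RPKM values (reads scaled to the length of the gene and to the reads counted in the library). The 2 vehicle libraries were less alike than the others, with a median absolute log2 difference between replicates of 0.333, against 0.108 for PTH and 0.103 for YKL-05-093. Of 11 osteoblast and osteocyte markers, 8 reached 0.5 RPKM in at least 1 library, among them Col1a1 and Runx2 in all 6 and Dmp1 in the vehicle and PTH libraries alone, but the osteocyte genes Sost, Mepe and Fgf23 were at 0.136 RPKM or less in every library. The summed RPKM of these 11 markers was 469 to 578 in vehicle, 656 to 732 in PTH and 544 to 637 in YKL-05-093 libraries, and that of 5 chondrocyte markers was 8.89 to 12.1, 15.6 to 23.9 and 18.7 to 25.0, although Acan, the cartilage proteoglycan core, stayed at 0.0189 RPKM or less. The chondrocyte sum is carried mostly by Col11a2, at 11.1 and 8.03 RPKM in vehicle, 21.8 and 13.8 with PTH, and 17.6 and 23.8 with YKL-05-093. Col2a1 was at 0.625 and 0.577, 1.71 and 1.54, and 0.730 and 0.771 RPKM in the same order. Matn3 stayed between 0.273 and 0.385 RPKM and Col9a1 at 0.0417 RPKM or less. The osteoblast and osteocyte sum is carried mostly by Col1a1 and Pdpn, and single markers of that list went the other way with PTH. Sp7, an osteoblast transcription factor, was at 46.0 and 45.5 RPKM in vehicle, 12.2 and 11.1 with PTH, and 22.4 and 29.7 with YKL-05-093. Runx2, another, was at 19.5 and 13.0, 7.87 and 7.02, and 11.6 and 12.6 RPKM in the same order. The part of these shifts in the results below was not tested. In RNA from whole cultures, fewer expressing cells and less RNA per cell cannot be told apart.

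Chst12 stood highest of the 10 genes in vehicle libraries, with a mean of 12.9 ± 1.31 RPKM (SD, n = 2), followed by Chst15 at 10.4 ± 1.22, Chst14 at 6.07 ± 0.159, Chst2 at 4.46 ± 0.506 and Chst11 at 3.67 ± 0.587 RPKM. Chst7, Chst10 and Chst3 followed at 2.80, 1.82 and 0.872 RPKM, and Chst8 and Chst1 were near the floor of the measurement at 0.0471 and 0.0240 RPKM. Neighbours in this order did not overlap in their 2 libraries, except Chst11 and Chst7. With PTH, Chst15 moved from rank 2 to rank 6, where it overlapped with Chst7, and Chst8 moved above Chst3. With YKL-05-093, Chst15 held rank 3, and Chst2, Chst7 and Chst11 had neighbouring levels that overlapped. The order rests on the gene lengths that the authors used, and the length recovered from the values differed from the merged exons in GENCODE M21 for 7 of the 10 genes, most of all for Chst10 (3108 against 11957 bases).

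**Figure D1:**
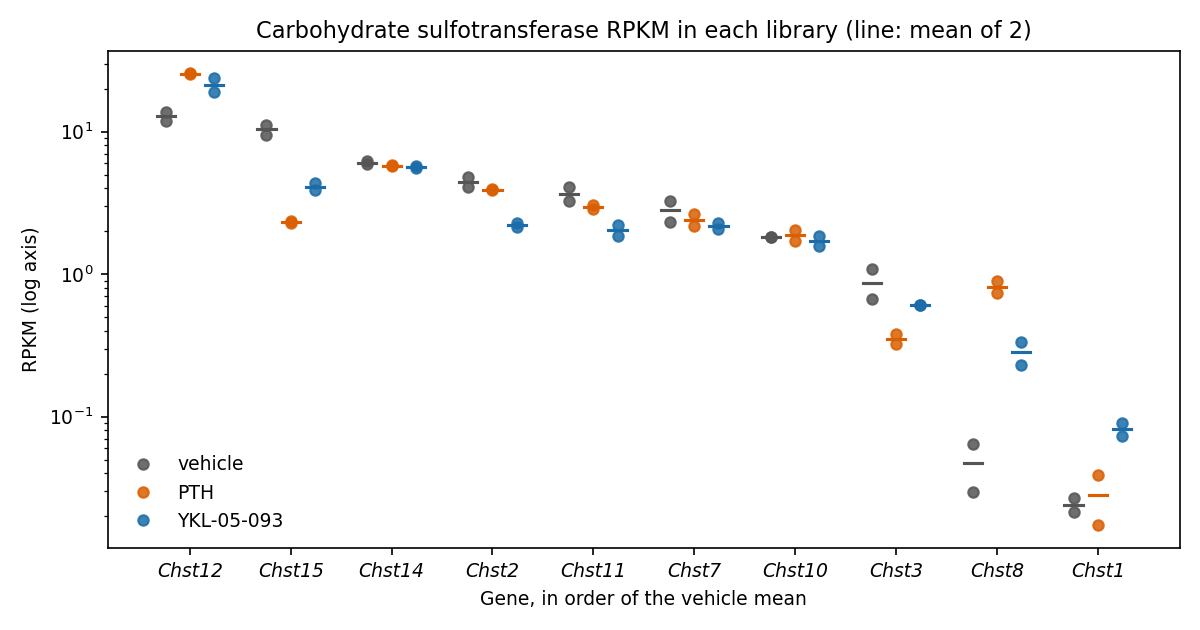
RPKM on a log axis for each carbohydrate sulfotransferase, with 1 point per library, a line at the mean of 2 libraries and colours for vehicle, PTH and YKL-05-093. Chst8 climbed from 0.0471 to 0.814 RPKM with PTH while Chst15 dropped from 10.4 to 2.32 RPKM, and YKL-05-093 lay between vehicle and PTH for both genes.

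Across the 3 conditions, 9 of the 10 genes reached 0.5 RPKM in at least 2 of the 6 libraries and entered the fit, and Chst1 did not. In PTH against vehicle, 2 of the 9 passed the call rule of an adjusted p under 0.05 in limma and a change of more than 2-fold, Chst8 upward and Chst15 downward, where 1.84% of all 14264 tested genes passed it, 1.05% upward and 0.792% downward. In YKL-05-093 against vehicle, 0 of the 9 passed in limma, where 0.266% of all genes passed. Of these 9, 5 had an unadjusted p under 0.05, against 8.61% of all genes, and voom on the recovered reads called 1. In PTH against YKL-05-093, 0 of the 9 passed in limma, against 1.1% of all genes, and voom called 1. Of the 9, 6 had an unadjusted p under 0.05, against 21.2% of all genes, and 4 had an adjusted p under 0.05 at any fold, against 7.54% of all genes. At any fold, 3 of the 9 had an adjusted p under 0.05 and 4 an unadjusted p under 0.05 in PTH against vehicle, against 2.04% and 13.1% of all genes. The genes were selected on these same contrasts, so nothing is read from the counts. The median log2 change of the 9 genes was -0.18 with PTH and -0.33 with YKL-05-093, beside -0.03 and -0.04 over all tested genes.

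**Figure D2:**
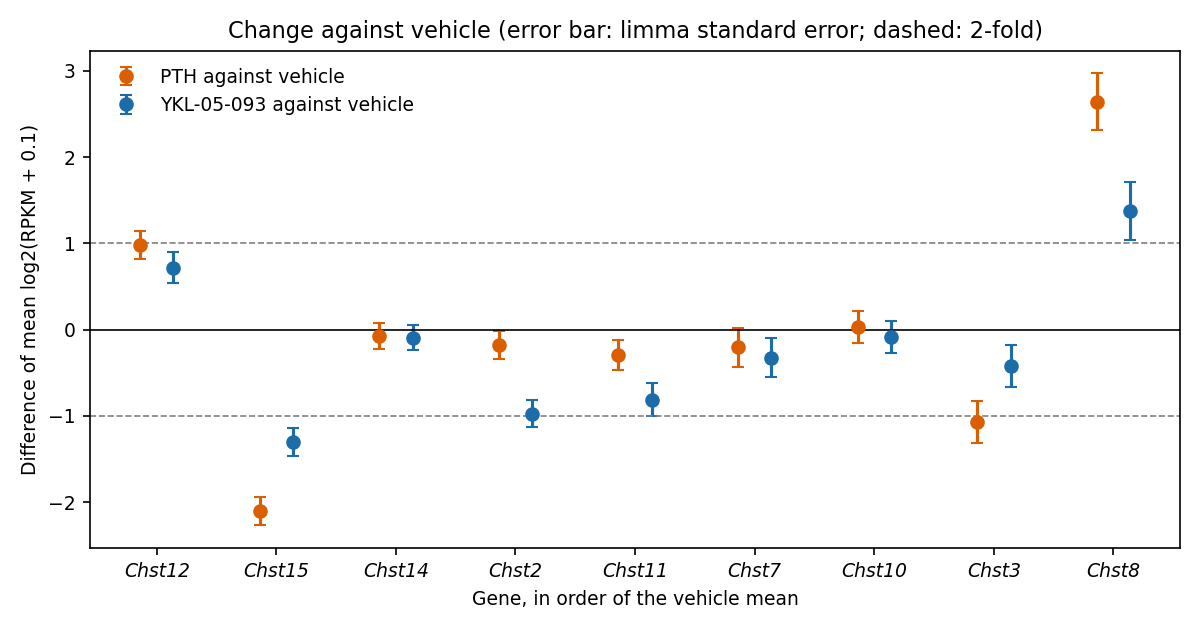
Difference of mean log2(RPKM + 0.1) against vehicle for the 9 tested genes, with PTH and YKL-05-093 side by side, limma standard errors as bars and dashed lines at 2-fold. Chst8 and Chst15 lie furthest from 0 in both comparisons, whereas Chst14 and Chst10 lie within 0.1 of it.

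Chst12 and Chst11 are the chondroitin 4-O-sulfotransferases of the group, which place sulfate on N-acetylgalactosamine of chondroitin, and they stood on opposite sides of vehicle with both treatments. Chst12 (chr5:140505550-140525724, plus strand) measured 12.0 and 13.8 RPKM in the vehicle libraries, 25.7 and 25.3 with PTH, and 18.9 and 23.7 with YKL-05-093. Both treatments sat above vehicle without overlap, and PTH sat above YKL-05-093. The change was 0.98 on the log2 scale with PTH (SE 0.16), which is just inside the 2-fold limit, and 0.71 with YKL-05-093 (SE 0.18). Chst12 had an adjusted p under 0.05 for PTH, and was called where the fold limit was 1.5 or absent, where the libraries were scaled by median ratios and where vehicle replicate 2 was left out.

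Chst11 (chr10:82985498-83195900, plus strand) measured 4.09 and 3.25 RPKM in vehicle, 3.03 and 2.88 with PTH, and 1.86 and 2.23 with YKL-05-093. It was lowest with YKL-05-093 and the 3 conditions did not overlap. The difference from vehicle was -0.30 on the log2 scale with PTH (SE 0.175) and -0.81 with YKL-05-093 (SE 0.188). The RPKM of Chst12 was 2.93 and 4.25 times that of Chst11 in vehicle libraries, 8.46 and 8.80 times with PTH, and 10.2 and 10.6 times with YKL-05-093.

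Chst15 (chr7:132235780-132317228, minus strand) encodes the enzyme that adds a second sulfate, at position 6, to N-acetylgalactosamine already sulfated at position 4, which makes chondroitin sulfate E. It measured 11.2 and 9.49 RPKM in vehicle libraries, 2.28 and 2.36 with PTH, and 3.90 and 4.34 with YKL-05-093. The vehicle libraries were the highest, the PTH libraries the lowest and the YKL-05-093 libraries between them, with no overlap. The vehicle mean was 4.46 times the PTH mean and 2.51 times the YKL-05-093 mean. Chst15 fell by 2.11 on the log2 scale with PTH (SE 0.16), with 1056 and 1428 reads in vehicle and 265 and 242 in PTH libraries. Its difference with YKL-05-093 was -1.31 (SE 0.16) and did not pass the call rule, although it did under 6 alternatives, among them 1 fit of all 6 libraries, a filter of 1 RPKM, median-ratio scaling, voom or vehicle replicate 2 left out. In PTH against YKL-05-093 the difference was -0.80 (SE 0.09). Exons of Gm10584, an antisense gene without a value here, overlap exons of Chst15 on the opposite strand, and the strand setting of the counting is not given in the sources used here, so reads of the pair may be mixed.

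The ratio of Chst12 to Chst15 separated the 3 conditions without overlap. Chst12 had 1.07 and 1.46 times the RPKM of Chst15 in vehicle libraries, 11.3 and 10.7 times with PTH, and 4.86 and 5.46 times with YKL-05-093. The summed RPKM of the 10 genes overlapped between vehicle and YKL-05-093, at 43.3 and 42.7 in vehicle and 37.2 and 43.3 with YKL-05-093, and was 46.3 and 45.5 with PTH. Within that sum, Chst15 held 25.9% and 22.2% in vehicle, 4.93% and 5.19% with PTH, and 10.48% and 10.02% with YKL-05-093. Chst11 and Chst12 together held 37.1% and 40.0% in vehicle, 62.0% and 61.9% with PTH, and 55.9% and 59.8% with YKL-05-093. These are shares of RNA and not of enzyme activity or of sulfated chains, which were not measured.

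**Figure D3:**
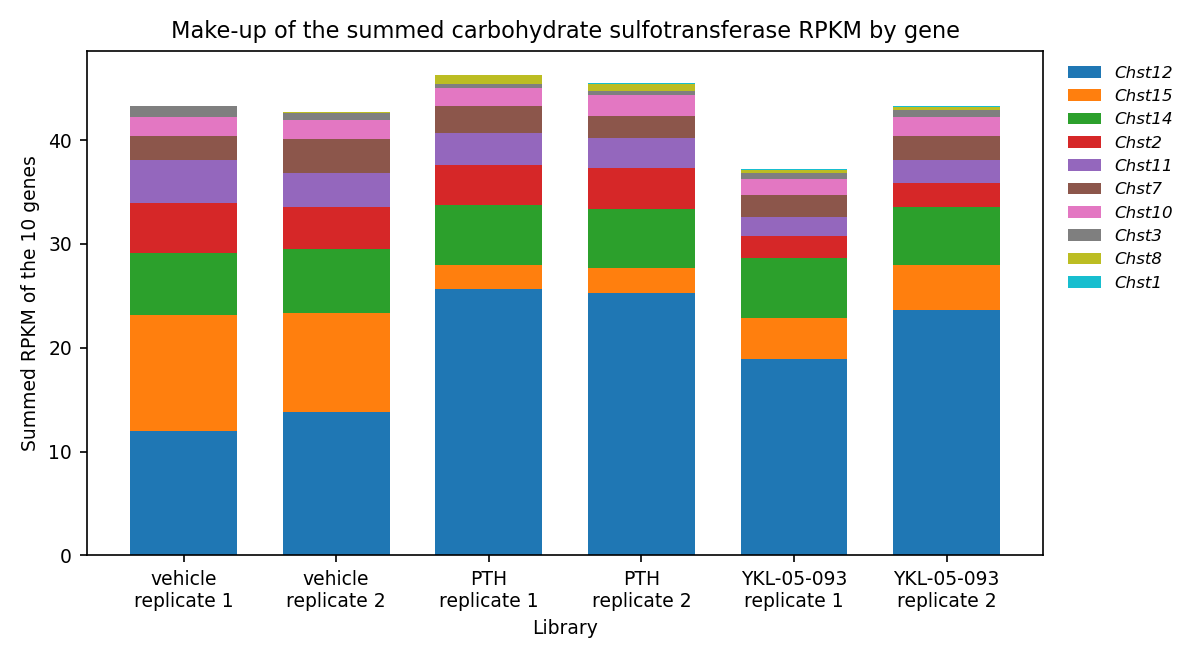
Summed RPKM of the 10 genes as stacked bars, 1 bar per library and 1 colour per gene. The sum stays between 37.2 and 46.3 RPKM, while the Chst15 segment shrinks from 25.9% and 22.2% of the sum in vehicle to 4.93% and 5.19% with PTH and the Chst12 segment widens.

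Chst3 and Chst7 encode chondroitin 6-O-sulfotransferases. Chst3 (chr10:60181532-60219260, minus strand) measured 1.08 and 0.664 RPKM in vehicle, 0.383 and 0.323 with PTH, and 0.612 and 0.603 with YKL-05-093. It was lowest with PTH, and its vehicle libraries were far apart. The difference was -1.07 on the log2 scale with PTH (SE 0.24) and -0.43 with YKL-05-093 (SE 0.25). It was past 2-fold with PTH but not past the adjusted p, and it was called under 3 alternatives, among them 1 fit of all 6 libraries and vehicle replicate 2 left out. Chst7 (chrX:20059560-20097521, plus strand) ranged from 2.08 to 3.28 RPKM over the 6 libraries, and its PTH libraries overlapped both other conditions.

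Chst14 (chr2:118926496-118928585, plus strand), the dermatan 4-O-sulfotransferase, varied least of the 10 in proportion to its level, from 5.59 to 6.18 over all libraries. Its differences from vehicle were -0.07 with PTH and -0.09 with YKL-05-093 on the log2 scale, below the standard errors of 0.15 and 0.14.

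Chst2 and Chst1 act on chains that end in or repeat N-acetylglucosamine and galactose. Chst2 (chr9:95399292-95406722, minus strand), an N-acetylglucosamine 6-O-sulfotransferase that makes ligands for selectins, measured 4.82 and 4.10 RPKM in vehicle, 3.88 and 3.97 with PTH, and 2.14 and 2.29 with YKL-05-093. Only the YKL-05-093 libraries stood well below the rest. The difference from vehicle was -0.97 on the log2 scale with YKL-05-093 (SE 0.16) and -0.18 with PTH (SE 0.16), and PTH stood 0.80 above YKL-05-093 (SE 0.09). Chst2 was called for YKL-05-093 without vehicle replicate 2 alone. Chst1 (chr2:92599707-92615250, plus strand), the keratan sulfate galactose 6-O-sulfotransferase, had 1 and 2 reads in vehicle, 1 and 2 in PTH, and 4 and 5 in YKL-05-093 libraries, at or under the floor of 3 reads in 2 of the conditions.

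Chst8 (chr7:34674468-34812711, minus strand) encodes a sulfotransferase for terminal N-acetylgalactosamine on N-glycans and is known for sulfating pituitary glycoprotein hormones. It measured 0.0295 and 0.0646 RPKM in vehicle, from 2 and 7 reads, 0.897 and 0.732 with PTH, from 75 and 54 reads, and 0.229 and 0.336 with YKL-05-093, from 18 and 27 reads. The 3 conditions did not overlap, with PTH the highest. Chst8 passed the filter through its PTH libraries alone, so it had to differ from vehicle to be tested at all. The rise with PTH was 2.64 on the scale of log2(RPKM + 0.1) (SE 0.33), and the summed reads, per counted read, were 16.0 times those of vehicle (95% exact binomial interval 8.19 to 35.8, counting error alone). With YKL-05-093 the difference was 1.38 (SE 0.34), and the summed reads were 5.54 times those of vehicle (95% exact binomial interval 2.68 to 12.9). PTH exceeded YKL-05-093 by 1.26 (SE 0.33), a ratio of summed reads of 2.89 (95% exact binomial interval 2.04 to 4.16).

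The call of Chst8 in PTH against vehicle was lost at a pseudocount of 1, where the change was 0.79 on the log2 scale, with the spread modelled on the mean log2 value, with no filter and at a filter of 1 RPKM, which left the gene out. Without PTH replicate 1 or without PTH replicate 2, limma called 0 genes of the whole table in this comparison, with 759 and 650 at an unadjusted p under 0.05. With each of the 4 libraries left out in turn, the log2 change was 2.47 to 2.81 for Chst8 and -2.23 to -1.99 for Chst15.

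**Figure D4:**
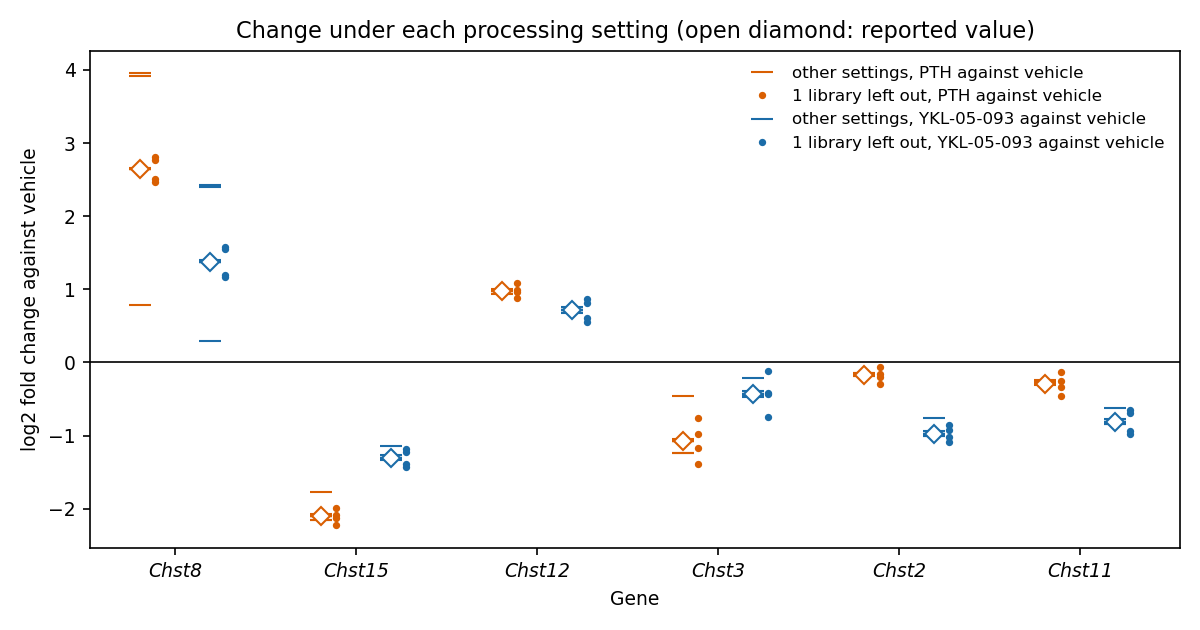
Log2 fold change against vehicle for 6 genes under each processing setting, with an open diamond for the reported value, dashes for other settings and dots for fits without 1 library. Chst8 ranges from 0.79 to 3.95 with PTH as the pseudocount and tool change, while Chst15 stays between -2.23 and -1.77.

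Chst10 (chr1:38863867-38898161, minus strand), which completes the HNK-1 epitope, measured 1.82 and 1.83 RPKM in vehicle, 1.71 and 2.02 with PTH, and 1.59 and 1.85 with YKL-05-093, and all 3 conditions overlapped.

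Taking all 9 tested genes, the libraries did not overlap between PTH and vehicle for 7, of which 2 were higher and 5 lower. Of all tested genes, 43.0% did not overlap, 19.1% higher and 24.0% lower. The same count was 8 for YKL-05-093 against vehicle, with 2 higher and 6 lower, beside 37.8% of all genes, 15.7% higher and 22.1% lower. It was 6 for PTH against YKL-05-093, with 4 higher and 2 lower, beside 50.0% of all genes, 26.2% higher and 23.7% lower. In the direct comparison, Chst8, Chst12, Chst2 and Chst11 stood higher with PTH and Chst15 and Chst3 lower. Both treatments share their vehicle libraries, so likeness between them was not measured.

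The remaining 4 Chst genes of the annotation were at or near the floor. Chst4 and Chst5 were listed at 0 in all 6 libraries. Chst9, a close relative of Chst8 with the same acceptor, had 3 reads in YKL-05-093 replicate 2 and 0 in the other libraries. Chst13, the further chondroitin 4-O-sulfotransferase, had 1 to 7 reads per library.

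For the rest of the sulfation pathway, 90 genes in 8 lists were examined, of which 56 passed the filter. They cover sulfate and PAPS supply, chondroitin and heparan sulfate synthesis, other Golgi sulfotransferases, enzymes of the acceptor chains, core proteins, sulfatases and the remaining Chst genes. In PTH against vehicle, 2 of the 56 were called, 1 in each direction, where 1.84% of all tested genes were called, and the median log2 change was -0.07, beside -0.03 over all genes. In YKL-05-093 against vehicle, 0 of the 56 were called by limma, where 0.266% of all tested genes were called. Of the 56, 8 had an unadjusted p under 0.05, against 8.61% of all tested genes, and voom called 1.

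Chsy1, a chondroitin synthase that extends the chain on which Chst11, Chst12 and Chst15 act, fell with PTH. It went from 12.4 ± 1.41 RPKM in vehicle to 5.18 ± 0.531 with PTH (SD, n = 2 each) and was at 6.62 ± 0.699 with YKL-05-093. Its log2 change was -1.24 with PTH (SE 0.17, limma adjusted p = 0.0197) and -0.90 with YKL-05-093 (SE 0.17, limma adjusted p = 0.142). The difference between PTH and YKL-05-093 was -0.35 (limma adjusted p = 0.0768). Without either PTH library in turn, Chsy1 was not called, with log2 changes of -1.140 and -1.345. Over its alternatives with no library left out, the limma adjusted p ranged from 4.11e-06 to 0.212. The lowest came from the replicate block, although the replicate numbers did not pair the libraries. The next lowest was 0.00386, with 1 fit of all 6 libraries.

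Hs3st1, a heparan sulfate 3-O-sulfotransferase that makes the antithrombin-binding site, was at 0.0465 RPKM in vehicle (1 and 8 reads) and at 0.510 with PTH (44 and 33 reads). The log2 change was 2.09 (SE 0.35, limma adjusted p = 0.0367), and the summed reads were 9.57 times those of vehicle (95% exact binomial interval 4.79 to 21.7). With YKL-05-093 it measured 0.714 RPKM from 54 reads in each library, a log2 change of 2.51 (SE 0.35, limma adjusted p = 0.0675). Like Chst8, Hs3st1 passed the filter through treated libraries alone, so it had to differ from vehicle to be tested at all, and its adjusted p against vehicle is no independent support for that difference. Its call with PTH was lost under 5 other settings and without vehicle replicate 1, PTH replicate 1 or PTH replicate 2. It was also lost at a filter of 1 RPKM, which left the gene out. Over the alternatives with no library left out that gave a value, the limma adjusted p ranged from 2.97e-05, with the replicate block, to 0.288. The next lowest was 0.012, with 1 fit of all 6 libraries.

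Among the most abundant genes of the lists, the 5 given next did not pass the test in PTH or YKL-05-093 against vehicle. Papss1, which makes PAPS, was at 65.7 ± 3.16 RPKM in vehicle, 56.9 ± 3.71 with PTH and 64.4 ± 5.79 with YKL-05-093 (SD, n = 2 each). Bgn, the core protein biglycan, was at 138, 146 and 150 RPKM in the same order, and B3gat3, which completes the linker between chain and core, at 26.3, 28.3 and 28.0 RPKM. Hs2st1, a heparan sulfate 2-O-sulfotransferase, was at 27.0, 29.3 and 25.2 RPKM, and B4galt1, a galactosyltransferase, at 28.5, 33.5 and 32.0 RPKM. The log2 differences of these 5 genes from vehicle ran from -0.21 for Papss1 to 0.25 for B4galt1, both with PTH, and none had an adjusted p under 0.05 in limma.

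In PTH against YKL-05-093, 0 of the 56 were called by limma or voom, with 13 at an unadjusted p under 0.05, and 5 passed the adjusted p at less than 2-fold. Over all tested genes, 21.2% had an unadjusted and 7.54% an adjusted p under 0.05, so both counts lay near the background and are no result about the pathway. Of these 5, Xylt1, Extl3, Fmod and Vcan were named after their values were seen. Tpst1, a tyrosine sulfotransferase and the most abundant of its list, was at 63.7 RPKM in vehicle, 52.0 with PTH and 89.1 with YKL-05-093, and the difference between PTH and YKL-05-093 was -0.78 on the log2 scale (SE 0.07, limma adjusted p = 0.000262). Xylt1, which starts the chain on the core protein, was at 1.46 RPKM in vehicle, 1.73 with PTH and 3.14 with YKL-05-093, so PTH stood below YKL-05-093 (-0.82, limma adjusted p = 0.00427) but not below vehicle. Its log2 difference between YKL-05-093 and vehicle was 1.06 (limma adjusted p = 0.111), and it was called there under 2 alternatives, 1 of them the fit of all 6 libraries. Extl3, which starts heparan sulfate, and the core proteins Fmod and Vcan were higher with PTH than with YKL-05-093, by 0.48, 0.42 and 0.37 on the log2 scale (limma adjusted p = 0.0018, 0.0061 and 0.0189).

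**Figure D5:**
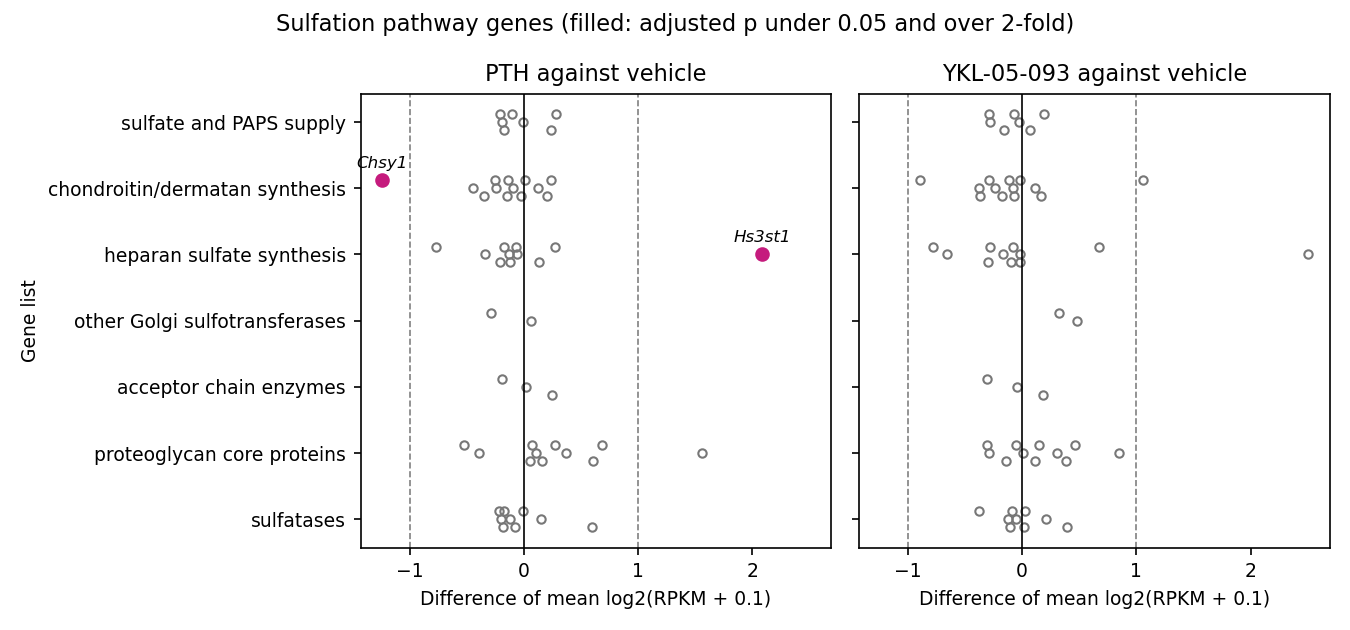
Difference of mean log2(RPKM + 0.1) for each tested gene of 7 pathway lists, 1 open circle per gene, for PTH and YKL-05-093 against vehicle, with dashed lines at 2-fold and filled circles for called genes. Chsy1 at -1.24 and Hs3st1 at 2.09 with PTH are the only filled points.

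The genes with profiles most like Chst8 and Chst15 over the 6 libraries were found by the distance between centred log2(RPKM + 0.1) values. For Chst8 they were Gadd45a, a stress-induced growth arrest gene (distance 0.474), Gm12347 (0.582) and Slc7a7, an amino acid transporter subunit (0.587). Gadd45a measured 1.51 and 1.72 RPKM in vehicle, 8.50 and 7.83 with PTH, and 3.21 and 3.62 with YKL-05-093, the same order of conditions as Chst8 at a higher level. The sizes of the changes differed, since the PTH mean of Chst8 was 17.3 times its vehicle mean, a larger ratio than that of Gadd45a. Adding 0.1 shrinks the log2 change of Chst8, near the floor in vehicle, more than that of Gadd45a, so this nearness rests on that setting. For Chst15 they were Gpr176, an orphan receptor (distance 0.333), Esm1, an endothelial proteoglycan core (0.352), and Hdac9, a class IIa histone deacetylase (0.36). Gpr176 measured 7.35 and 5.73 RPKM in vehicle, 1.46 and 1.39 with PTH, and 2.23 and 2.10 with YKL-05-093.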

How the data were processed

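The authors removed ribosomal RNA, prepared strand-marking libraries, aligned with STAR against mm10 (GRCm38) and obtained gene counts from HTSeq on Ensembl annotation (CASAVA 1.7 and STAR are named in the submitters' processing notes). The authors deposited linear RPKM values for 39179 genes in 6 libraries. How gene length was defined is not given in the sources used here. Whole reads were recovered for all 26214 genes above 0 (tolerance 0.01 read), and 99.7% of the library totals were accounted for. In simulated libraries, 96.7% of genes were recovered exactly.

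For each comparison, log2(RPKM + 0.1) was fitted in limma 3.58.1 (R 4.3.3) over the 14264 genes that reached 0.5 RPKM in 2 or more of 6 libraries, with the spread modelled on mean log2(reads + 0.5) and Benjamini-Hochberg adjustment. Calls required an adjusted p under 0.05 and more than 2-fold. Standard errors are limma's moderated ones. In 5 simulations of PTH against vehicle (14229 genes on average), 93.8% of genes changed by 2 on the log2 scale were called. Of those changed by 3, 95.0% were called, and 0.84% of calls were false. Smaller changes were not tried. Whether these rates hold at the spread of the real vehicle and PTH libraries was not tested. Exact permutation of 2 against 2 libraries cannot give a p below 0.333 and was not used. Intervals of summed reads are exact binomial at 95% and cover counting error only.

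The members and the gene lists were chosen with earlier results of these data known. Named genes are all members, the remaining Chst genes, called pathway genes, the most abundant gene of each pathway list and the 3 tested genes nearest in profile to Chst8 and Chst15. Xylt1, Extl3, Fmod, Vcan, Srgn and the marker genes fall outside this rule, and all of these but the marker genes were named after their values were seen. The most abundant gene of 1 list is not reported here. Of the marker symbols, 1 of 4 for macrophages and blood was not matched. GENCODE M21 (GRCm38) gave positions and held 96.2% of the identifiers. Promoters came from RefSeq on GRCm38.p6. Alternatives were other pseudocounts, filters, scaling, models of the spread, voom, the replicate block and leaving out each library. The model of the spread on log2 mean reads was added after seeing the data.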

Additional observations from a re-analysis of the deposited data

How the results depend on the processing

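Over all tested genes, PTH against vehicle gave 263 calls, YKL-05-093 against vehicle 38 and PTH against YKL-05-093 157. With the spread modelled on the mean log2 value these were 155, 5 and 131, at a filter of 0.1 RPKM 149, 5 and 136, at a filter of 1 RPKM 252, 96 and 150, with no filter 0, 13 and 77 (2662 genes at an unadjusted p under 0.05 for PTH against vehicle, with 26214 genes tested), with 1 fit of all 6 libraries 334, 173 and 102, with voom 287, 96 and 192, and at a pseudocount of 1 208, 28 and 89. The direct comparison gave 464 genes at a fold limit of 1.5 and 1076 with no fold limit. The replicate numbers did not pair the libraries (correlations of their deviations -0.03, -0.05 and -0.05), and a replicate block gave 453, 225 and 172 genes. At the same limits of fold and false discovery rate, the paper reports more genes for each treatment against vehicle than the first counts given here. It used edgeR on gene counts, and the reason for the difference was not tested. The counts here are therefore no measure of the size of either effect.

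Leaving out each library in turn gave 0 to 659 genes for PTH, 0 to 304 for YKL-05-093 and 0 to 0 for the direct comparison, with the lone library assumed to vary like the other group; both highest counts came without vehicle replicate 2. The counts of 0 stood beside 485 to 3244 genes at an unadjusted p under 0.05. Among the 9 sulfotransferases, 2 were called for PTH against vehicle, 1 with the spread modelled on the mean log2 value, at a pseudocount of 1 and at a filter of 1 RPKM, 0 with no filter, 3 (Chst3 added) with 1 fit or the replicate block, and 0 to 4 without 1 library. For YKL-05-093 against vehicle, 0 were called, 1 (Chst15) with 1 fit, a filter of 1 RPKM, median-ratio scaling, voom or the replicate block, and 0 to 2 without 1 library. For PTH against YKL-05-093, 0 were called, 1 (Chst8) with the spread on log2 mean reads, voom or the replicate block, 3 at a fold limit of 1.5 and 4 with no fold limit. Among the pathway genes, 2 were called for PTH, and 3 (the core protein Srgn added) with 1 fit or the replicate block. The count was 1 with the spread on the mean log2 value, at either other pseudocount or filter, and 0 with no filter. For YKL-05-093 0 were called, 2 (Hs3st1 and Xylt1) with 1 fit, 1 with voom, 2 (Hs3st1 and Xylt1) with the replicate block and 0 to 2 without 1 library, and for the direct comparison 2 at a fold limit of 1.5 and 5 with no fold limit. No called gene named here changed direction in any alternative run. The cause was not tested.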
